A study of Mus musculus with 15 samples.

Results

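The comparison set 2 short hairpin RNAs against the same gene, Tet1, beside each other: 3 arrays of mouse embryonic stem cells carrying shTet1#5 against 3 arrays of cells carrying shTet1#4. These 6 arrays were taken by their labels from the 15 arrays of the series, and all 21212 probe sets were compared. The cells were E14TG2a.4, a line grown without feeder cells and in the presence of LIF, at passage 17. They were transduced with lentivirus made from the pLKO.1 vector and selected in puromycin at 2 µg/ml, begun 36 hours after transduction and kept for 72 hours. All groups shared the line, the vector, the selection and serum medium with LIF, and none carried another genetic change named in the labels. A further 3 arrays of the same set carried a scrambled hairpin under the same selection and are given only as the reference level. The labels name neither a clone nor separate cultures, so the p-values measure the spread between arrays, which may be technical. Each hairpin is 1 sequence, and what it does to RNAs other than Tet1 cannot be told apart here from what the depth of Tet1 loss does.

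TET1 is a dioxygenase that oxidises 5-methylcytosine to 5-hydroxymethylcytosine, and it is abundant in embryonic stem cells. Hairpins against 1 gene share its loss, while their other effects depend on the sequence of each. ATF4 is the transcription factor of the integrated stress response: when amino acids are short or the secretory pathway is burdened, eIF2α kinases slow general translation, ATF4 protein accumulates and it turns on amino acid transporters, amino acid synthesis and tRNA charging enzymes. The Id proteins bind basic helix-loop-helix factors and keep them off DNA. In stem cells grown with LIF, Id genes are the classical targets of BMP signalling through SMAD1 and SMAD5 and hold back neural differentiation.

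The target gene was lowered by both hairpins. Tet1 stood at log2 levels of 12.21, 12.17 and 12.21 on the scrambled arrays. It stood at 10.43, 10.44 and 10.39 with shTet1#4. It stood at 9.94, 10.14 and 10.20 with shTet1#5. The arrays of the hairpins did not overlap, and all 3 arrays of shTet1#5 were the lower ones. The difference of shTet1#5 minus shTet1#4 was -0.33 ± 0.07 (SE) on the log2 scale, with a 95% interval from -0.49 to -0.17. It did not pass the threshold over all probe sets (limma, Benjamini-Hochberg adjusted p = 0.17). An exact two-sided permutation test of this 1 probe set gave p = 0.1, the smallest that 3 against 3 arrays allow. Tet2, the other TET gene expressed at a high level in these cells, differed by -0.20 (adjusted p = 0.52), and Tet3 by 0.03 (adjusted p = 0.95).

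Of the 21212 probe sets, 30 passed an adjusted p of 0.05 between the hairpins (limma), which is 0.141%. The 12 that were higher with shTet1#5 make 0.0566% and the 18 that were lower make 0.0849%. After centring each array on its median, 31 passed and the share of higher calls moved from 40% to 51.6%. The differences that passed were between 0.40 and 0.79 log2 units in size, and the arrays of the hairpins did not overlap for any of the 30. Such a gap between the arrays was present in 3160 of all probe sets (14.9%), with shTet1#5 above in 8.07% and below in 6.83%. Over all probe sets the median difference was 0.0027, and its 5th and 95th percentiles were -0.19 and 0.19. Only 53 probe sets differed by 1.5-fold or more, and 12 of these passed. At an unadjusted p under 0.05 there were 1836 probe sets (8.66%), of which 947 were higher (4.46%) and 889 lower (4.19%). The calls need the scrambled arrays for the estimate of spread: from the 6 hairpin arrays alone limma called 0, with 2114 at an unadjusted p under 0.05. Leaving out shTet1#4 replicate 1, 2 or 3 left 0, 4 and 6 calls, and leaving out shTet1#5 replicate 1, 2 or 3 left 0, 1 and 0. Without scrambled replicate 1 there were 9 and without scrambled replicate 3 there were 0. The counts of 0 stood beside 1300 (shTet1#4 replicate 1), 1405 (shTet1#5 replicate 1), 1742 (shTet1#5 replicate 3) and 1677 (scrambled replicate 3) probe sets at an unadjusted p under 0.05. The difference of each of the 27 named genes that passed kept its sign in each of the 17 alternatives that tested it. Their arrays did not overlap between the hairpins, so leaving out arrays could not have changed a sign. Settings that altered only the spread estimate or the probe sets tested keep the same difference. The kept signs are therefore no support for the calls.

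**Figure D1:**
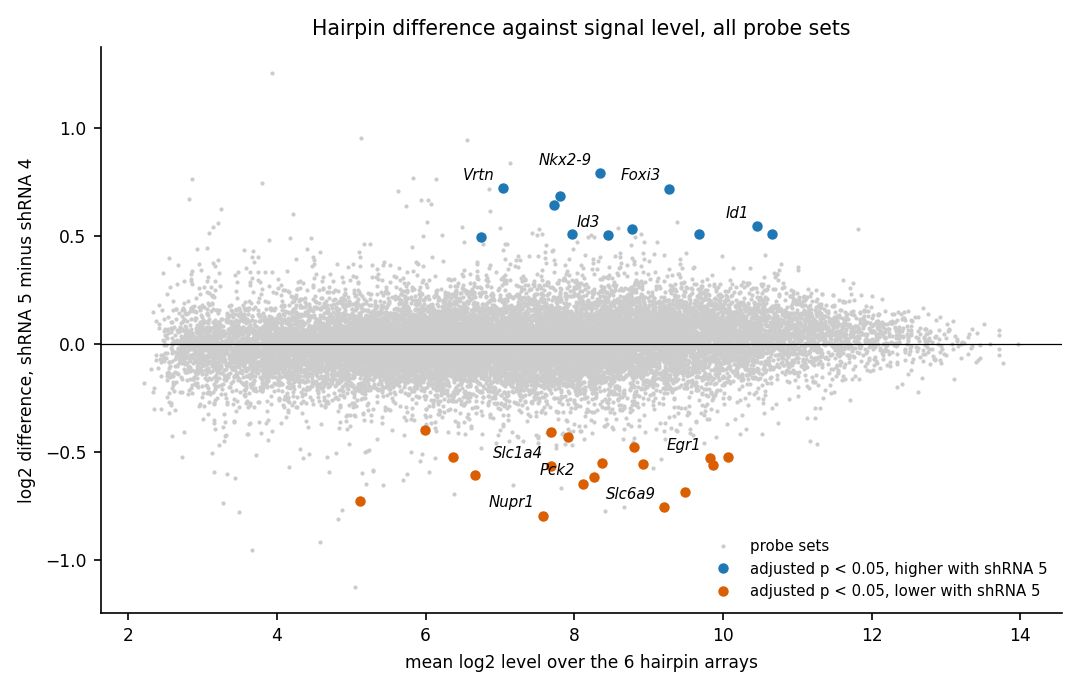
Difference between the Tet1 hairpins (log2, shTet1#5 minus shTet1#4, vertical axis) against the mean log2 level of the 6 hairpin arrays (horizontal axis), 1 point for each of 21212 probe sets. The 12 higher (blue) and 18 lower (orange) probe sets that passed lie 0.40 to 0.79 log2 units from 0, and 25 of the 30 lie above the median level.

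Arrays were alike in the rest of their profile. Array means lay between 7.08 and 7.11 log2 units, and the correlation over probe sets was 0.995 to 0.997 between arrays of shTet1#4, 0.997 within shTet1#5 and 0.995 to 0.997 between them. Scrambled replicate 2 and shTet1#4 replicate 2 departed from their group means in a like way (r = 0.517 over probe sets), and 1 probe set passed when both were left out. All 10 pluripotent cell markers were above the median level with both hairpins. Their mean level was 11.97 to 12.00 with shTet1#4, 11.89 to 11.93 with shTet1#5 and 11.83 to 11.90 with the scrambled hairpin. Of the other cell types, 3 of 11 fibroblast markers, 5 of 11 primitive endoderm markers and 5 of 10 trophoblast markers were above the median with either hairpin, and 0 of any list passed the threshold in limma (unadjusted p under 0.05: 2 lower pluripotent, 1 lower fibroblast, 1 higher primitive endoderm). Of the 6 neural markers, 4 were above the median with shTet1#4 and 5 with shTet1#5. The mean of the 6 was 7.28 to 7.42 with shTet1#4, 7.47 to 7.54 with shTet1#5 and 7.80 to 7.89 with the scrambled hairpin. Of these markers 2 were higher at an unadjusted p under 0.05, where 4.46% of all probe sets were higher and 4.19% lower. In bulk RNA, fewer cells of a type and less RNA per cell cannot be told apart.

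Among the genes that passed, the lowest with shTet1#5 against shTet1#4 included targets of ATF4. Nupr1, a small stress-induced nuclear protein, was 1.73-fold lower, and Slc6a9, a plasma membrane glycine transporter, was 1.69-fold lower. Pck2, the mitochondrial phosphoenolpyruvate carboxykinase, differed by -0.65 on the log2 scale. Chac1, an enzyme that degrades glutathione, differed by -0.61, and Slc1a4, a transporter of neutral amino acids, by -0.57. Stc2, a secreted stanniocalcin induced by stress, differed by -0.41. In the fixed lists, 4 of 27 measured ATF4 stress response genes and 2 of 18 amino acid transport genes passed as lower and 0 as higher, against 0.0849% of all probe sets passing as lower.

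**Figure D2:**
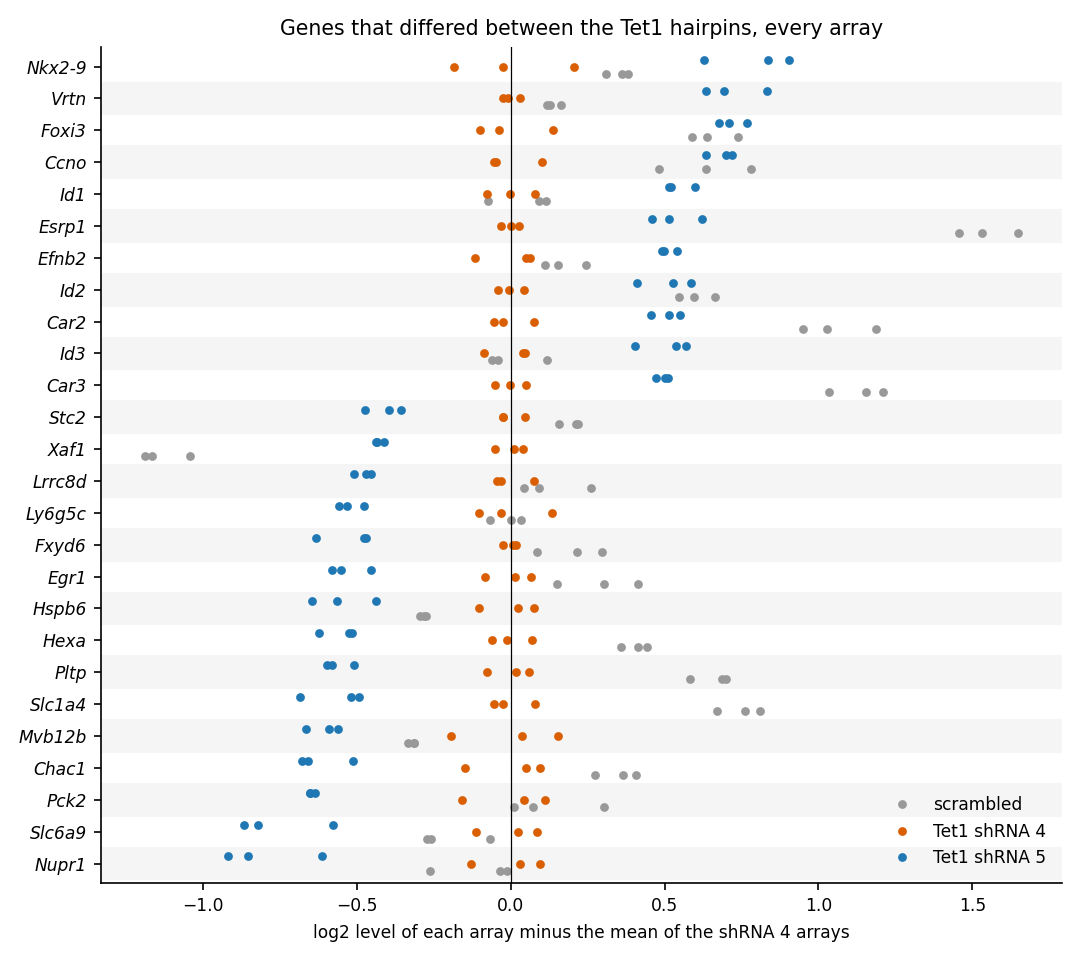
The 11 higher and the first 15 lower named genes that passed between the hairpins (Cerkl is not drawn), with 1 point per array: log2 level minus the mean of the shTet1#4 arrays, for the scrambled hairpin (grey), shTet1#4 (orange) and shTet1#5 (blue). The blue and orange points do not overlap in any of the 26 rows, while the grey points lie between them in some rows and beyond either in others.

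Promoter sequences are shown for 4 of these 6 genes because a shared element in them is the known landing site of ATF4 and C/EBP dimers. The core searched was TGATGNAA on both strands, in the window from 250 bases before to 50 after each RefSeq start (GRCm38.p6). In the sequences below, each 5′ to 3′ along its gene, the match is in capitals, and in all 4 it reads as the reverse complement of the core. Each run ends at the annotated start, except that of Slc1a4, whose match spans it. The windows are Nupr1 at chr7:126625471-126625720 on the minus strand, Chac1 at chr2:119350992-119351241 on the plus strand, Pck2 at chr14:55540016-55540265 on the plus strand and Slc1a4 at chr11:20332710-20332963 on the minus strand.
Nupr1: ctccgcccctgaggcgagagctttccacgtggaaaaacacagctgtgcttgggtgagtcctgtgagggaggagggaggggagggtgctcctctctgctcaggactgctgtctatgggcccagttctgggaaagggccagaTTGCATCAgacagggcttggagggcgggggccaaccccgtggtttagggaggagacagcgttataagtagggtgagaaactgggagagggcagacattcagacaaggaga
Chac1: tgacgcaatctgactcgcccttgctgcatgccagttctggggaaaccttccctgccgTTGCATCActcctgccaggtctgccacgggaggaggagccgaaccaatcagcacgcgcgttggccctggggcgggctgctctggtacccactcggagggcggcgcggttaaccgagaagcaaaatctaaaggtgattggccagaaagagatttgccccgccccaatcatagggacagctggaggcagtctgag
Pck2: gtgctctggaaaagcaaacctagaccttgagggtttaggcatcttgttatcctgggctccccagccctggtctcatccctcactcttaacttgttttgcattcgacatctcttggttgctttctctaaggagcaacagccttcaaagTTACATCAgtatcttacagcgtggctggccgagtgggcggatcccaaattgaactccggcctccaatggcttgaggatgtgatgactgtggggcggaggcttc
Slc1a4: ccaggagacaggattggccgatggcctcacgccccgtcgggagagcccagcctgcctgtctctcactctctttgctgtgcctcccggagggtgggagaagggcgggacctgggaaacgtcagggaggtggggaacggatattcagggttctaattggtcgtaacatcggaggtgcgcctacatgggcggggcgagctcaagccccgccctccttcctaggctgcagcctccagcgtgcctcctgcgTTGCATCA
Nupr1, Chac1 and Slc1a4 carry the identical letters TTGCATCA, and Pck2 carries TTACATCA. The letters do not occur in the windows of Slc6a9 and Stc2.

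The core was present in 1219 of 27025 genes with a RefSeq promoter (4.51%). It was present in 10 of 24 ATF4 stress response genes with a promoter in the table, 3 of 13 amino acid transport genes, 5 of 20 aminoacyl-tRNA synthetases and 2 of 13 genes of serine, glycine and asparagine synthesis. The genes that passed as lower held it in 4 of 16 and those that passed as higher in 0 of 7. Over these 4 lists together, the 20 genes with the core had a median hairpin difference of -0.19, and 17 of them were below 0. The 50 genes without it had a median of -0.05, and 27 were below 0. The 4 lists were chosen with earlier results of these data known, and the 20 genes include Nupr1, Chac1, Pck2 and Slc1a4. The difference of genes with the core outside the lists was not examined, so the contrast describes and does not test. A match describes letters in a window and was not tested as a site in these cells.

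The levels by array show where each of the 6 genes stood. Nupr1 read 8.00, 7.84 and 8.07 with shTet1#4 and 7.05, 7.12 and 7.36 with shTet1#5, a difference of -0.79 ± 0.10 (SE, adjusted p = 0.028). On the scrambled arrays Nupr1 read 7.71, 7.96 and 7.93, so shTet1#5 alone stood apart. Slc6a9 read 9.67, 9.61 and 9.47 with shTet1#4 and 8.77, 8.72 and 9.01 with shTet1#5, a difference of -0.75 ± 0.10 (adjusted p = 0.028). Its scrambled arrays, at 9.32, 9.33 and 9.52, reached the range of shTet1#4 and stayed above all of shTet1#5. Pck2 read 8.49, 8.56 and 8.29 with shTet1#4 and 7.81, 7.79 and 7.80 with shTet1#5 (adjusted p = 0.038), against 8.46, 8.75 and 8.52 with the scrambled hairpin. Pck2 thus had the tightest low group of the 6.

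Chac1 and Slc1a4 stepped down across the groups instead. Chac1 read 8.84, 8.98 and 8.93 on the scrambled arrays, 8.66, 8.62 and 8.42 with shTet1#4 and 8.06, 7.89 and 7.91 with shTet1#5 (adjusted p = 0.028). Slc1a4 read 8.64, 8.73 and 8.78, then 8.05, 7.91 and 7.94, then 7.28, 7.45 and 7.47 in the same order (adjusted p = 0.028). Both genes had 3 groups with no overlap. Stc2 read 7.87, 7.87 and 7.94 with shTet1#4 and 7.50, 7.42 and 7.54 with shTet1#5 (adjusted p = 0.036), below its scrambled levels of 8.05, 8.10 and 8.11.

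**Figure D3:**
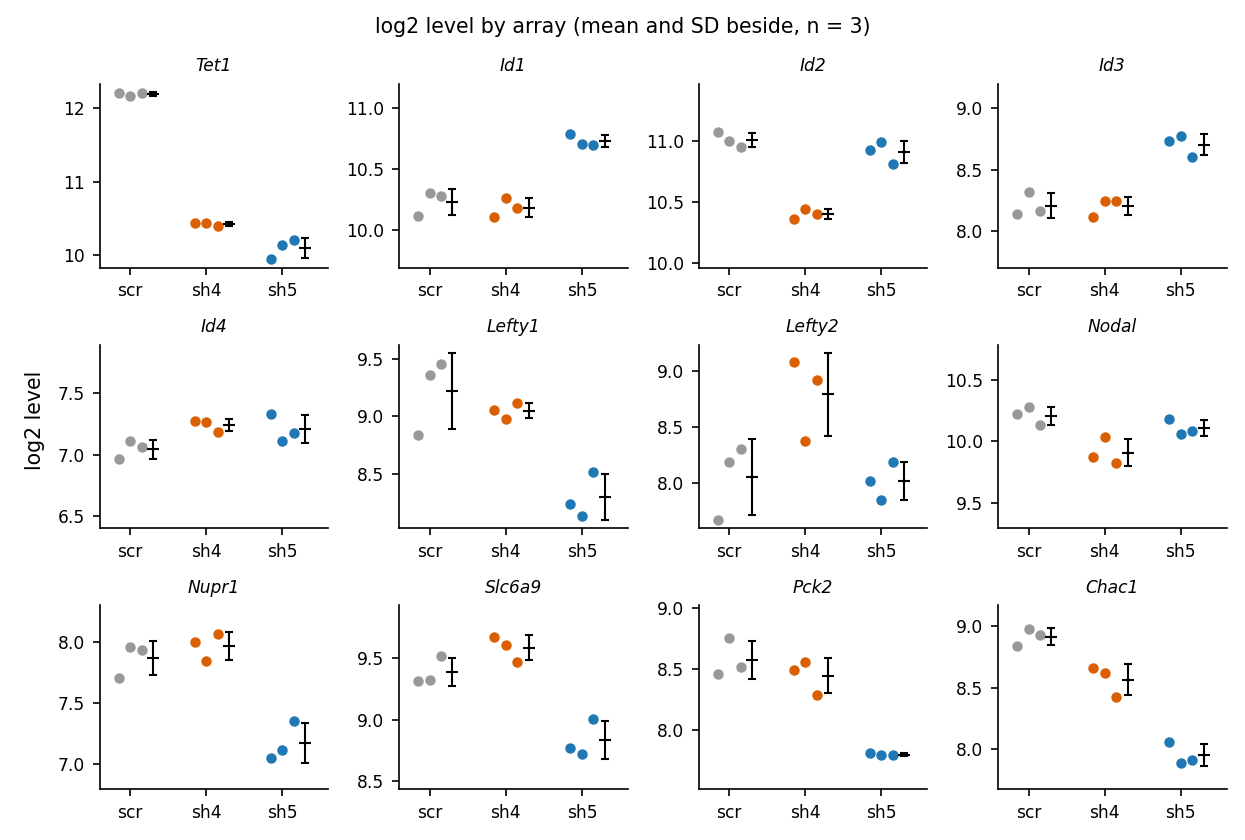
Log2 level by array (points) with the mean and SD of 3 arrays beside them, for scrambled (scr), shTet1#4 (sh4) and shTet1#5 (sh5); every panel spans at least 1.5 log2 units. Id1, Id2 and Id3 stand about 0.5 higher and Nupr1, Slc6a9, Pck2 and Chac1 0.6 to 0.8 lower with shTet1#5 than with shTet1#4, while Id4 differs by -0.03.

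Most other members of the ATF4 program missed the threshold one by one. Of the 27 ATF4 stress response genes, 10 were lower and 1 higher at an unadjusted p under 0.05, where 4.19% of all probe sets were lower and 4.46% higher. The 10 include Nupr1, Pck2, Chac1 and Stc2, which passed. Of probe sets above the median level, where 20 of the 27 lie, 5.36% were lower and 7% higher. The list median was -0.10 against 0.0027 over all probe sets. Among the ATF4 genes that missed were Vldlr (-0.33), Gpt2 (-0.28), a mitochondrial alanine transaminase, and Cebpg (-0.21), the dimer partner of ATF4. The member on the other side was Ddit4, an inhibitor of mTORC1 signalling, at 0.27 (adjusted p = 0.42). For genes of serine, glycine and asparagine synthesis the counts were 6 lower and 0 higher of 15 measured. Psat1, the serine pathway transaminase, had the largest size in that list at -0.45 (adjusted p = 0.08), followed by Aldh18a1 of proline synthesis at -0.42 and Mthfd2 of mitochondrial folate metabolism at -0.37. Asns, asparagine synthetase, read 12.41, 12.44 and 12.46 with shTet1#4 and 12.22, 12.22 and 12.26 with shTet1#5, a small difference of -0.20 (adjusted p = 0.24), and both hairpins stood above the scrambled 12.07, 12.06 and 12.05.

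No charging enzyme passed. Of 27 aminoacyl-tRNA synthetases, 9 were lower and 0 higher at an unadjusted p under 0.05, against 4.19% of all probe sets lower and 5.36% of those above the median level, and by sign alone 15 of the 27 lay below 0 and 12 above. Lars, for leucine, differed by -0.39, Cars, for cysteine, by -0.33, Nars, for asparagine and also in the ATF4 list, by -0.29, Sars, for serine, by -0.28 and Iars, for isoleucine, by -0.26. Their adjusted p lay between 0.14 and 0.28. For 8 of the 9, the scrambled mean lay beyond shTet1#4, which put shTet1#5 furthest from the reference. In amino acid transport 5 of 18 were lower at an unadjusted p under 0.05, and these include Slc6a9 and Slc1a4, which passed. Slc7a1, a cationic amino acid transporter, was among them at -0.35 (adjusted p = 0.16). Nars stands in both the ATF4 and the synthetase list, and the 4 lists were chosen with earlier results of these data in view, so their counts describe and do not test.

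No regulator upstream of these genes passed. Of 13 measured regulators of ATF4, 0 passed in limma. At an unadjusted p under 0.05, 2 were lower (15.4%), against 4.19% of all probe sets. Atf4 itself read 8.24, 8.26 and 8.24 with shTet1#4 and 7.99, 8.01 and 8.09 with shTet1#5, a difference of -0.21 (adjusted p = 0.23). Eif2ak4, the amino acid sensing kinase GCN2, differed by -0.14 (adjusted p = 0.57), with overlapping arrays. ATF4 protein and the activity of eIF2α kinases are not measured by arrays. Chaperones of the endoplasmic reticulum, the ATF6 and XBP1 branch of the same stress, had 0 of 22 members past the threshold in limma. At an unadjusted p under 0.05, 5 of the 22 were higher and 0 lower, against 4.46% of all probe sets higher and 7% of those above the median level. Hspa5, the chaperone BiP, had the largest difference of the 5 at 0.26 (adjusted p = 0.24). In all 5 the scrambled mean lay beyond shTet1#4, with shTet1#5 furthest from it. The core TGATGNAA was in 0 of 18 promoters of these chaperones, beside 4.51% of all genes with a RefSeq promoter. At that share, 0 in a list of this size is no result about the chaperones.

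**Figure D4:**
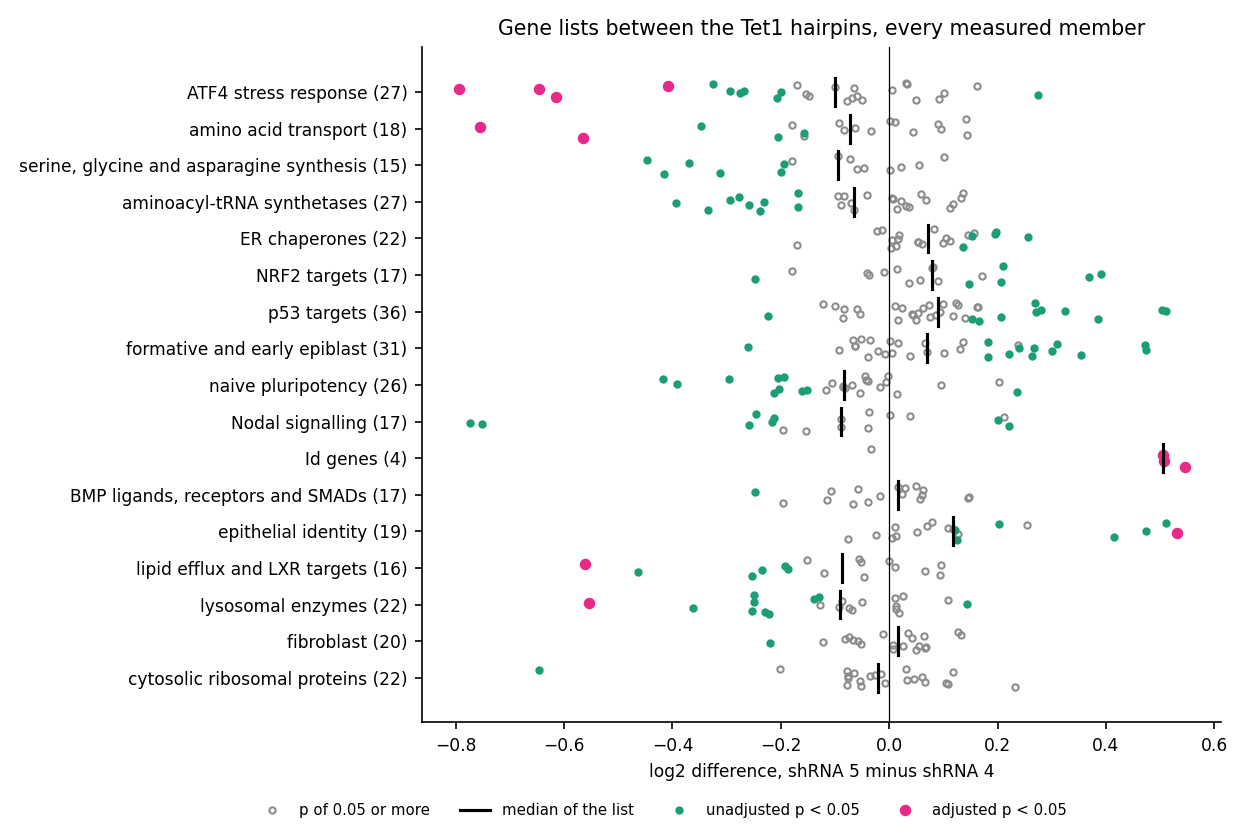
Hairpin difference (log2, shTet1#5 minus shTet1#4, horizontal axis) of every measured member of 17 gene lists; the number in brackets is the number measured, bars are list medians, green marks an unadjusted and magenta an adjusted p under 0.05. The medians of the ATF4, amino acid and tRNA synthetase lists lie left of 0, and 3 of the 4 Id genes lie near 0.5.

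Id1, Id2 and Id3 were higher with shTet1#5 than with shTet1#4, and Id4 was not. Of the 4 members, 3 thus passed as higher. The Id list was written after the values were seen, and 0.0566% of all probe sets passed as higher. Id1 read 10.11, 10.27 and 10.18 with shTet1#4 and 10.79, 10.71 and 10.70 with shTet1#5, a difference of 0.55 ± 0.07 (SE, adjusted p = 0.028). Id3 read 8.11, 8.24 and 8.25 and then 8.74, 8.77 and 8.60, a difference of 0.50 ± 0.07 (adjusted p = 0.045). For these genes the scrambled arrays, 10.11, 10.30 and 10.28 for Id1 and 8.14, 8.32 and 8.16 for Id3, overlapped shTet1#4. Id2 had another reference: it read 11.07, 11.00 and 10.95 on the scrambled arrays, 10.36, 10.45 and 10.40 with shTet1#4 and 10.93, 10.99 and 10.81 with shTet1#5 (0.51 ± 0.06, adjusted p = 0.028). Here shTet1#4 was the low group, and shTet1#5 overlapped the scrambled arrays. Id4 differed by -0.03, with an interval from -0.20 to 0.13.

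Genes of BMP signalling itself did not pass. Both BMP lists given here were added after values were seen. Of 17 BMP ligands, receptors and SMADs, 0 passed in limma, with a median of 0.02. At an unadjusted p under 0.05, 1 was lower, against 4.19% of all probe sets. That member was Bmpr1b, a type I receptor, at -0.25 with overlapping arrays. Among 16 BMP antagonists and other targets, Msx2, a homeobox target, read 6.62, 6.69 and 6.64 with shTet1#4 and 6.96, 6.94 and 7.02 with shTet1#5 (0.32, adjusted p = 0.13). Smad7, the inhibitory SMAD, lay the other way at -0.25 (adjusted p = 0.25). The phosphorylation of SMAD proteins is not measured by arrays.

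The other genes that were higher with shTet1#5 than with shTet1#4 included developmental regulators. Vrtn, a DNA-binding protein of the developing body axis, had the smallest adjusted p of all probe sets (0.014). It read 6.70, 6.65 and 6.67 with shTet1#4 and 7.37, 7.31 and 7.51 with shTet1#5, a difference of 0.72 ± 0.06 (SE), with scrambled levels of 6.79, 6.84 and 6.80 between them. Nkx2-9, a homeobox gene of the ventral neural tube, read 7.93, 8.16 and 7.77 and then 8.58, 8.79 and 8.85, a difference of 0.79 ± 0.10 (adjusted p = 0.028). The scrambled arrays, at 8.31, 8.33 and 8.26, again lay between the hairpins. Foxi3, a forkhead factor of the ectodermal placodes, read 9.50, 9.65 and 9.55 on the scrambled arrays, 8.88, 9.05 and 8.81 with shTet1#4 and 9.63, 9.68 and 9.59 with shTet1#5 (0.72 ± 0.08, adjusted p = 0.024). Ccno, the cyclin that drives centriole amplification in multiciliated cells, read 7.94, 8.24 and 8.09, then 7.41, 7.56 and 7.40, then 8.18, 8.16 and 8.09 (0.68 ± 0.08, adjusted p = 0.028). For both of these genes shTet1#5 overlapped the scrambled arrays and shTet1#4 stood below them. Efnb2, the transmembrane ligand ephrin-B2, differed by 0.51 ± 0.07 (adjusted p = 0.028).

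Members of their own lists were counted at an unadjusted p under 0.05, where 4.46% of all probe sets were higher and 4.19% lower. Vrtn was the only 1 of 22 mesendoderm genes at that level (4.55%), and Nkx2-9 the only 1 of 18 Hedgehog genes (5.56%). Both counts are near the share of all probe sets that were higher. For Ccno, 3 of the 20 other multiciliated genes were lower at that level, and for Foxi3, 1 of the 14 other placode genes was higher. Neuroectoderm genes counted 4 higher and 1 lower of 19, led by Neurod1 at 0.54 (adjusted p = 0.16), En1 at 0.41 and En2 at 0.39. Neurod1 read 8.67, 8.46 and 8.34 on the scrambled arrays against 6.68, 6.53 and 6.97 with shTet1#4 and 7.24, 7.27 and 7.28 with shTet1#5, so both hairpins were far below the reference. En1 and En2, in contrast, stood highest with shTet1#5.

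Epithelial genes and carbonic anhydrases included genes for which shTet1#4 was furthest from the reference. Esrp1, the epithelial splicing regulator, read 10.16, 9.97 and 10.05 on the scrambled arrays, 8.52, 8.49 and 8.54 with shTet1#4 and 8.98, 9.14 and 9.03 with shTet1#5. The difference between hairpins was 0.53 ± 0.07 (SE, adjusted p = 0.028). Of 19 epithelial identity genes, a list added after values were seen, 7 were higher and 0 lower at an unadjusted p under 0.05, with a median of 0.12. At that p 4.46% of all probe sets, and 7% of those above the median level, were higher. For 6 of the 7 epithelial genes shTet1#4 departed more from the scrambled mean. They include Perp, a desmosome protein (0.51, adjusted p = 0.065), Grhl2, a transcription factor of epithelia (0.47, adjusted p = 0.070) and Cldn6, a tight junction protein (0.41, adjusted p = 0.060). Car2, a cytosolic carbonic anhydrase, read 10.61, 10.45 and 10.37, then 9.40, 9.37 and 9.50, then 9.97, 9.88 and 9.94 (0.51 ± 0.07, adjusted p = 0.042). Car3, its muscle-type relative, read 7.71, 7.65 and 7.53, then 6.45, 6.55 and 6.50, then between 6.97 and 7.01 on all 3 arrays (0.50 ± 0.06, adjusted p = 0.028). In both, shTet1#5 covered part of the distance back to the scrambled level. Car4 had a like order but did not pass (0.46, adjusted p = 0.11). The carbonic anhydrase list was also added after values were seen. Of its 16 measured members 2 passed as higher, where 0.0566% of all probe sets did, and 14 did not pass. At an unadjusted p under 0.05, 3 were higher and 1 lower, against 4.46% and 4.19% of all probe sets, with a median of -0.03.

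The remaining genes that were lower with shTet1#5 than with shTet1#4 included genes of lipid handling, lysosomes and signalling. Pltp, the phospholipid transfer protein, read 10.73, 10.84 and 10.83 on the scrambled arrays, 10.20, 10.16 and 10.07 with shTet1#4 and 9.55, 9.56 and 9.64 with shTet1#5 (-0.56 ± 0.06, adjusted p = 0.024). In the lipid efflux and LXR list 6 of 16 were lower and 0 higher at an unadjusted p under 0.05, where 4.19% of all probe sets, and 5.36% of those above the median level, were lower. Apoe, a carrier of cholesterol, had the next largest size at -0.46 (adjusted p = 0.12). Hexa, a subunit of lysosomal hexosaminidase, read 9.14, 9.27 and 9.19 with shTet1#4 and 8.58, 8.68 and 8.69 with shTet1#5 (-0.55 ± 0.06, adjusted p = 0.024). It headed a list of 22 lysosomal genes with 9 lower and 1 higher at that level, against the same 4.19% and 5.36%, among them the cathepsins Ctsl (-0.36) and Ctsa (-0.25). Both lists were added after values were seen.

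Egr1, an immediate early transcription factor, read 10.01, 10.10 and 10.15 with shTet1#4 and 9.54, 9.51 and 9.64 with shTet1#5 (-0.53 ± 0.08, adjusted p = 0.047), below scrambled levels of 10.24, 10.50 and 10.39. It was the only 1 of 23 FGF and MAPK feedback targets to pass, and Myc in that list lay on the higher side (0.24, adjusted p = 0.26). The differences of Hspb6, a small heat shock protein (-0.55), Mvb12b, a subunit of the ESCRT-I sorting complex (-0.60), Lrrc8d, a subunit of volume-regulated anion channels (-0.48), Fxyd6, a regulator of the sodium pump (-0.52), and Ly6g5c (-0.52) passed at adjusted p from 0.028 to 0.044. Xaf1, an interferon-inducible partner of XIAP, read 6.95, 6.97 and 7.09 on the scrambled arrays, 8.17, 8.08 and 8.15 with shTet1#4 and 7.70, 7.72 and 7.70 with shTet1#5. Its difference was -0.43 ± 0.06 (adjusted p = 0.036), and 30 of the 31 interferon response genes measured did not pass. Cerkl, related to ceramide kinase, was the lower named gene outside the first 15 and differed by -0.40. It read 5.78, 5.77 and 5.76 on the scrambled arrays, 6.22, 6.17 and 6.19 with shTet1#4 and 5.83, 5.84 and 5.70 with shTet1#5, so shTet1#4 was the group that stood apart. The other 3 probe sets that passed have a predicted gene name or no symbol in the platform annotation.

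The scrambled arrays show which hairpin stood further from the reference, as a description with no test. Among the 12 probe sets higher with shTet1#5, the scrambled mean lay between the hairpin means for 8, and shTet1#4 departed more from it for 4. Among the 18 lower ones, it lay between for 6, shTet1#5 departed more for 10 and shTet1#4 for 2. Of the 6 ATF4 and amino acid transport genes that passed as lower, shTet1#5 departed more for Pck2, Chac1, Slc1a4 and Stc2, and the scrambled mean lay between the hairpins for Nupr1 and Slc6a9.

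No p53 or NRF2 target passed. Of 36 p53 targets, 10 were higher and 1 lower at an unadjusted p under 0.05, against 4.46% of all probe sets higher and 7% of those above the median level, with a median of 0.09. Perp, Plk2, a polo-like kinase (0.50, adjusted p = 0.12), Btg2, an antiproliferative cofactor (0.39, adjusted p = 0.16), Phlda3, an inhibitor of AKT (0.32, adjusted p = 0.10), and Mdm2, the ligase that degrades p53 (0.27, adjusted p = 0.31), were among them. For 7 of the 11 at that level shTet1#4 departed more from the scrambled mean, for 4 the scrambled mean lay between, and for 0 shTet1#5 departed more. Mdm2 shows it: 10.40, 10.12 and 10.18 scrambled, 9.79, 9.79 and 9.67 with shTet1#4, and 10.01, 10.01 and 10.04 with shTet1#5. Of 17 NRF2 targets, the antioxidant genes, 5 were higher and 1 lower at that level, led by Nqo1, a quinone reductase, at 0.39 (adjusted p = 0.076).

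Of 31 formative and early epiblast genes and 26 naive pluripotency genes, 0 passed in limma. At an unadjusted p under 0.05, where 4.46% of all probe sets were higher and 4.19% lower, 11 formative genes were higher and 1 lower. At the same level 1 naive gene was higher and 9 were lower. The list medians were 0.07 and -0.08. Of probe sets above the median level, 7% were higher and 5.36% lower at that p. There lie 28 of the 31 formative and 24 of the 26 naive genes. The de novo methyltransferase genes Dnmt3b (0.35, adjusted p = 0.070) and Dnmt3a (0.26, adjusted p = 0.15) and their cofactor Dnmt3l (0.22, adjusted p = 0.26) were on the higher side. Dnmt3b read 9.38, 9.45 and 9.42 with shTet1#4 and 9.68, 9.84 and 9.79 with shTet1#5, both below its scrambled 10.41, 10.44 and 10.40. Fgf5, the growth factor of the epiblast, differed by 0.30 (adjusted p = 0.17). On the naive side Tcl1, a coactivator of AKT, differed by -0.42 (adjusted p = 0.070), Pecam1 by -0.39, Tbx3 by -0.30 and Esrrb by -0.21. The core pluripotency list had 1 of 14 at an unadjusted p under 0.05, Lin28a, an RNA-binding protein (0.18, adjusted p = 0.33).

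In the Nodal pathway, which signals through SMAD2 and SMAD3, the feedback antagonists differed as much as genes that passed but had wider errors and did not pass. Lefty1 read 9.05, 8.98 and 9.11 with shTet1#4 and 8.24, 8.13 and 8.52 with shTet1#5 (-0.75 ± 0.15, SE, adjusted p = 0.15). Lefty2 read 9.08, 8.37 and 8.93 and then 8.02, 7.84 and 8.19 (-0.77 ± 0.20, adjusted p = 0.25). Neither overlapped between hairpins, and both varied by 0.6 log2 units among the scrambled arrays alone. Of 17 members, 6 were lower and 2 higher at an unadjusted p under 0.05. This compares with 4.19% and 4.46% of all probe sets, and 5.36% and 7% of those above the median level. The ligand Nodal itself (0.20, adjusted p = 0.46) and its transcription partner Foxh1 (0.22, adjusted p = 0.57) were the higher ones, and Smad7 and Furin, the protease that matures Nodal (-0.26, adjusted p = 0.20), were lower.

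Size alone did not make a call. Trim5 had the lowest difference among genes that may be named, -1.12, at low levels of 4.09 to 5.89 over the hairpin arrays (adjusted p = 0.26). Tmed2 had the highest, 0.95, with arrays from 4.11 to 6.13 that overlapped (adjusted p = 0.55). Hadhb (0.77), Sec61b (-0.92) and Stard6 (-0.96) also missed the threshold. Their SE lay between 0.25 and 0.68, against a median of 0.085 over all probe sets. A median probe set had a 95% interval of 0.19 log2 units to each side, which bounds what 3 against 3 arrays can resolve.

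The scrambled arrays also gave a set of genes to place beside the hairpin difference. There were 1868 probe sets that passed against scrambled for both hairpins with the same sign (8.81% of all). These comparisons share the scrambled arrays, so the count is no result of its own. For 1820 of the 1868 the 95% interval of the hairpin difference lay within a 1.5-fold change to either side, for 48 it did not, and 9 passed between the hairpins. The share within, 97.4%, stood beside 96.3% of all probe sets. Gfra2, a receptor of the GDNF family, read 9.42, 9.67 and 9.37 with shTet1#4 and 9.50, 9.63 and 9.65 with shTet1#5, far above its scrambled 7.60, 7.31 and 7.22. Its hairpin difference was 0.11, with an interval from -0.14 to 0.36. Klhl13, an adaptor of a ubiquitin ligase, differed by 0.05 (from -0.11 to 0.22) and Scd1, a fatty acid desaturase, by -0.15 (from -0.34 to 0.04). The intervals of Thbs1 (0.18 to 0.55), Cnn2 (0.14 to 0.46), Fndc3c1 (0.05 to 0.68) and A2m (-0.70 to -0.14) left out 0, though none of them passed (adjusted p from 0.17 to 0.48). Those of A2m and Fndc3c1, and that of Pramel19 (-0.18 to 0.70), also reached past a 1.5-fold change. In Thbs1, an extracellular matrix glycoprotein, the levels were 9.08, 8.83 and 8.88 scrambled, 6.71, 6.61 and 6.73 with shTet1#4 and 7.11, 7.10 and 6.94 with shTet1#5.

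**Figure D5:**
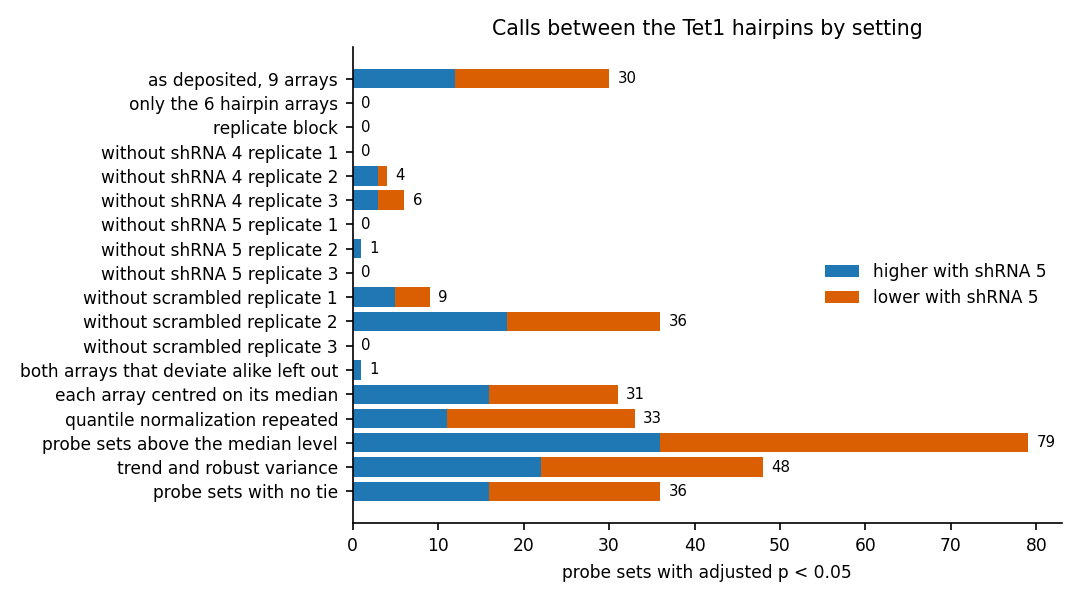
Number of probe sets with an adjusted p under 0.05 between the hairpins (horizontal axis) for the values as deposited and for 17 alternative settings, split into higher (blue) and lower (orange) with shTet1#5. The count is 30 as deposited, between 0 and 36 when 1 array is left out, and 79 when only probe sets above the median level are tested.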

How the data were processed

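RNA of transduced mouse embryonic stem cells was measured on Affymetrix arrays. The log2 values were used as deposited by the authors; the submitters' processing notes list RMA, affy and limma without versions. RMA as a rule corrects background, equalises array distributions and summarises probes, which narrows the differences of dim genes. Genes were named from the platform annotation, and a gene with several probe sets is given by the one with the highest mean over the 9 Tet1 arrays. The difference was fitted with limma 3.58.1 (R 4.3.3; lmFit, eBayes) as 3 group means over these 9 arrays, so the scrambled arrays add only to the spread. P-values are two-sided, adjusted by Benjamini-Hochberg over 21212 probe sets, with a threshold of 0.05. No filter was applied. The fit was run on simulated data with independent errors, and changes were placed only in probe sets with a spread below the median. Deviations shared between arrays, as seen here, were not simulated. Named genes were Tet1 to Tet3, up to 15 highest and 15 lowest that passed, the 5 largest differences each way, up to 5 members each way per list at an unadjusted p under 0.05 (more for the ATF4, p53 and formative lists), and the 5 genes each way that both hairpins moved most against scrambled. Id4, Cerkl and members named beyond this were chosen after their values were seen. The members and the lists were chosen with earlier results of these data known; 37 lists held 872 distinct symbols, of which 778 were found, and 8 lists were added after values were seen. Alternatives were other fits, scalings, filters and leaving out each array. Promoters are from RefSeq (GRCm38.p6). Hairpin sequences and scan dates were not used here.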

Additional observations from a re-analysis of the deposited data

Results flagged for a closer look

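For 5 of the 27 named genes that passed between the hairpins, the hairpins stood on opposite sides of the same reference. The 3 arrays of 1 hairpin all lay above every scrambled array and the 3 arrays of the other all lay below. Only genes that passed were searched, and the pattern was not counted over all probe sets. Nkx2-9 differed by 0.79 between the hairpins, Vrtn by 0.72 and Efnb2 by 0.51, each above the reference with shTet1#5 and below it with shTet1#4. Hspb6 differed by -0.55 and Mvb12b by -0.60, each below the reference with shTet1#5 and above it with shTet1#4. Hspb6 read 8.35, 8.37 and 8.37 on the scrambled arrays, 8.67, 8.72 and 8.54 with shTet1#4 and 8.00, 8.08 and 8.21 with shTet1#5. Efnb2 read 7.83, 7.87 and 7.96, then 7.60, 7.78 and 7.77, then 8.22, 8.26 and 8.21. That the difference between the hairpins passed for each gene (limma, adjusted p from 0.014 to 0.036) was a condition of the search. In the same fit, each hairpin against scrambled passed on both sides only for Hspb6 (limma, adjusted p = 0.031 with shTet1#4 and 0.036 with shTet1#5). With shTet1#4 the departure did not pass for Vrtn (0.23), Efnb2 (0.15) and Nkx2-9 (0.059). With shTet1#5 it did not pass for Mvb12b (0.054). For these genes only 1 of the sides is thus set apart from the reference by the fit.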

How the results depend on the processing

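The count of 30 depends on how the spread is estimated and on single arrays. It was 0 with the 6 hairpin arrays alone, 1 without both arrays that deviate alike, 79 among probe sets above the median level (36 higher, 43 lower) and 48 with a trended and robust variance. Leaving out 1 array gave 0 to 36. Repeating quantile normalization gave 33 (33.3% higher) and leaving out probe sets with a tie gave 36. With the replicate number as a block the count was 0, beside 1817 at an unadjusted p under 0.05 in limma. Same-numbered arrays of the hairpins had deviations correlated at -0.05, -0.24 and -0.06. Those of scrambled replicate 2 and shTet1#4 replicate 2 were correlated at 0.517. Whether the numbers pair arrays across the groups was not tested. The Tet1 difference stayed between -0.38 and -0.25 and never passed (adjusted p from 0.063 to 0.55). Of the 27 named calls, 24 were kept after median centring, 22 after quantile normalization and 25 without scrambled replicate 2. With the 6 hairpin arrays alone or the block, 0 were kept. The same held without shTet1#4 replicate 1, shTet1#5 replicate 1 or 3, or scrambled replicate 3. Without shTet1#4 replicate 2 or 3, 4 and 3 were kept. Without shTet1#5 replicate 2 there was 1, and without scrambled replicate 1 there were 8. Vrtn was kept in 10 of 17 alternatives, the most of any gene, and Cerkl in 2 of 16, the fewest. Array data limit the precision by their number, 3 per hairpin.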
